A study of Mus musculus with 5 samples.

Results

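Rnd1, Rnd2 and Rnd3 encode the 3 Rnd proteins, a branch of the small GTPases, and NEUROD2 binding around them was read from ChIP-Seq peaks of embryonic mouse cortex. Peaks of 3 NEUROD2 antibodies were taken where their midpoint lay inside the gene or up to 100 kb from either end, and peaks that overlapped by at least 1 bp were merged into regions. This gave 34 of the 53833 regions in the whole data set, built from 67 of 94621 peaks, with 5 regions at Rnd1, 14 at Rnd2 and 15 at Rnd3. The chromatin came from the cerebral cortex of BALB/c embryos at embryonic day E14.5, with no treatment or mutation. NEUROD2 was immunoprecipitated with 3 different antibodies, 1 library each, and 2 further libraries made with antibodies to GFP, a protein that mice do not make, served as controls in the authors' peak calling. Cortices of several litters were pooled for each experiment, and the whole tissue was used, so progenitors, migrating neurons and settled neurons are not told apart. With a single condition and 1 library per antibody, no test between groups was possible, and the spread over antibodies is not a spread over animals.

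Rnd proteins are small GTPases that bind GTP but hardly hydrolyse it, so they are regulated mainly through how much of them is made, through phosphorylation and through where they sit in the cell. They act on the actin cytoskeleton and bind plexins, the receptors of semaphorins. In the embryonic cortex Rnd2 is known as a target of the proneural factor Neurog2, and both Rnd2 and Rnd3 are needed for radial migration. NEUROD2 is a basic helix-loop-helix factor of postmitotic cortical neurons that binds the 6-letter E-box, CANNTG, as a dimer.

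The sequences below come from the regions in which all 3 antibodies had a peak, because these are the places where binding rests on most antibodies. The printed bases overlap no annotated exon, and Rnd2 regions 8 and 11 were left out because theirs would. Regions are numbered from 5′ to 3′ along each gene. The first 7 sequences are from the plus strand of mm10 and span 200 bases around the region midpoint, except for Rnd3 region 5, where they are centred on the antibody 3 peak. That centre was chosen after seeing the data, and around its midpoint Rnd3 region 5 held 0 extended E-boxes. A motif in each printed sequence thus depends on this choice. The last is the minus strand of the 250 bases before the Rnd3 TSS (transcription start site), chr2:51149112-51149361, as the RefSeq promoter table for GRCm38 (mm10) gives it. Their positions are chr15:98582540-98582739 for Rnd1 region 4 and chr11:101477674-101477873, chr11:101485427-101485626 and chr11:101544256-101544455 for Rnd2 regions 5, 7 and 12. Those at Rnd3 are chr2:51146271-51146470 for region 5, chr2:51090859-51091058 for region 7 and chr2:51087714-51087913 for region 9. Capitals mark the core of an extended E-box, a motif in which a G or a T follows the core on at least 1 strand. Its palindromic forms are CAGCTG and, less often in the data set, CATATG. The remaining form is CAGATG, which reads as CATCTG from the opposite strand.
Rnd1 region 4: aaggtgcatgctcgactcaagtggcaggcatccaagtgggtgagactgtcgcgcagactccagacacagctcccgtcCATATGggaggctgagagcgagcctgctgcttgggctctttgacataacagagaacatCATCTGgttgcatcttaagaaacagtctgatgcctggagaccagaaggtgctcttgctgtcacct
Rnd2 region 5: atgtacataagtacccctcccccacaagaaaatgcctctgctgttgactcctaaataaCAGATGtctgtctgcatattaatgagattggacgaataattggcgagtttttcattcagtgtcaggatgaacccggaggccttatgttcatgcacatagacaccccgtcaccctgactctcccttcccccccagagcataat
Rnd2 region 7: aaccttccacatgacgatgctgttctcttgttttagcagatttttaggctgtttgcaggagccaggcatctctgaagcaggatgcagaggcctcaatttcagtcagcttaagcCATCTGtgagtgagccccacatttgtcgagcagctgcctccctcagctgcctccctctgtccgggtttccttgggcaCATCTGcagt
Rnd2 region 12: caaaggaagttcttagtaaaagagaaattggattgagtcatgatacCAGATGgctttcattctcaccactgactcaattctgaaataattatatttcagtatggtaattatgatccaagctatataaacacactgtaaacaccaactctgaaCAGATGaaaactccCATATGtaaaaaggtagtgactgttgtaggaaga
Rnd3 region 5: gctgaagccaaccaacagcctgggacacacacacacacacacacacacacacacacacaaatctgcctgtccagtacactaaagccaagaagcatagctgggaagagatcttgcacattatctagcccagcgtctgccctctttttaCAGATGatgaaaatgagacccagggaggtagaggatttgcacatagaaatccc
Rnd3 region 7: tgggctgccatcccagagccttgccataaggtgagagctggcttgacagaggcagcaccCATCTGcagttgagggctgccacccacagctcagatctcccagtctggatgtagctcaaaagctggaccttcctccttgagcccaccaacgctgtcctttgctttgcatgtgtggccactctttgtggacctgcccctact
Rnd3 region 9: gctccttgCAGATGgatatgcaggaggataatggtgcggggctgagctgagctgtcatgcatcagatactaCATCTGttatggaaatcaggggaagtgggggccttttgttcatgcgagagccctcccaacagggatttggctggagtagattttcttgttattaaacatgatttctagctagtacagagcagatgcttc
Rnd3 promoter: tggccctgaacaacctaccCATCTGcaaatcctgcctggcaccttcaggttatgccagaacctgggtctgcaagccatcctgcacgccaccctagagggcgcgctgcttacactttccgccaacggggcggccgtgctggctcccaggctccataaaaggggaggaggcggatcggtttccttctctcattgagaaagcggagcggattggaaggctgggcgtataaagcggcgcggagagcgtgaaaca

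Across the 3 genes Rnd1 had the fewest regions, and Rnd2 and Rnd3 had nearly equal numbers when all peaks were counted. The Rnd1 window held 5 antibody 1 peaks, 3 antibody 2 peaks and 1 antibody 3 peak, a mean of 3.00 ± 2.00 (SD, n = 3 antibodies). For Rnd2 the same antibodies gave 14, 11 and 5 peaks, a mean of 10.0 ± 4.58 (SD, n = 3). For Rnd3 they gave 15, 10 and 3 peaks, a mean of 9.33 ± 6.03 (SD, n = 3). Every antibody gave fewer peaks at Rnd1 than at either relative, while Rnd2 and Rnd3 changed order between antibody 1 and antibodies 2 and 3. The antibodies also differed in their totals, which were 51841, 35310 and 7470 peaks, so the SDs include that difference.

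Measured in the same way over 21938 protein-coding genes, the median gene had 5 regions (quartiles 2 and 9), and 84.9% had at least 1. The score of a peak is 10 times the negative log10 of its p-value in the peak caller. Fewer regions than at Rnd1 were found for 44.6% of genes, a share that was 21.3% in a window of 50 kb and 64.7% with a minimum score of 100. Fewer regions than at Rnd2 were found for 89.1% of genes, and fewer than at Rnd3 for 91.2%. By density the values were 2.34 regions per 100 kb of window at Rnd1, 6.77 at Rnd2 and 6.86 at Rnd3, against a median of 2.18. Each antibody taken alone placed Rnd2 above 89.9% to 97.1% of genes and Rnd3 above 90.4% to 91.7%, and placed Rnd1 above 43.6% to 60.3%. At Rnd3 8 regions were left with a minimum score of 100 and 8 in a window of 50 kb, against 12 and 10 at Rnd2. At Rnd1 all 5 were left with that minimum score, 1 in the window of 50 kb and 3 without antibody 1.

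**Figure D1:**
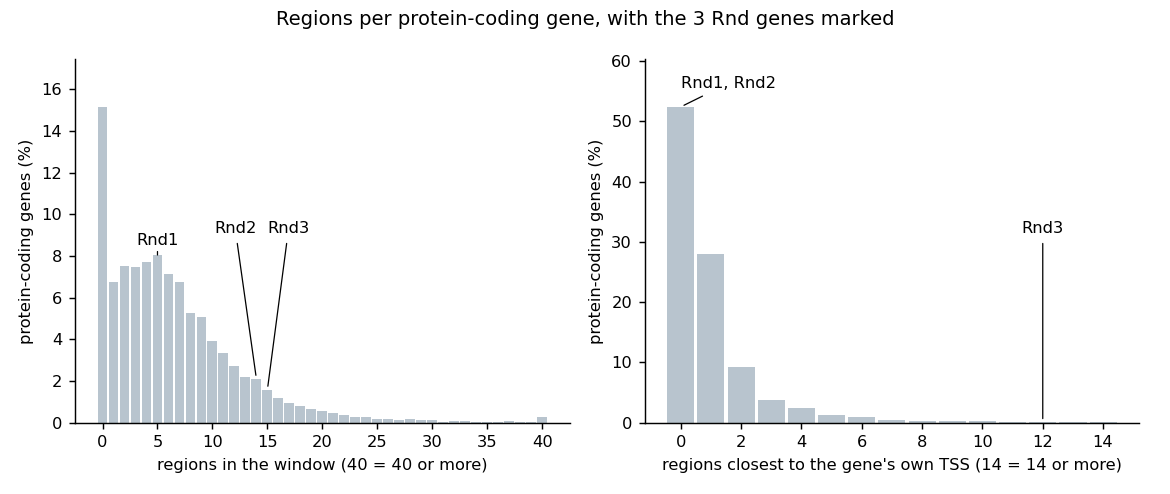
Share of the 21938 protein-coding genes (y axis, percent) by their number of regions within 100 kb (left) and by the number of those regions closest to their own TSS (right). Rnd1 sits at the median of 5 regions and Rnd2 (14) and Rnd3 (15) in the upper tail, and on the right Rnd3 (12) stands apart while Rnd1 and Rnd2 have 0.

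Regions with peaks of all 3 antibodies numbered 1 at Rnd1, 5 at Rnd2 and 3 at Rnd3. Together these were 9 of 34 regions, or 26.5%, against 13.3% of all regions, and 11 of 34 rested on 1 antibody, or 32.4% against 40.1%. At least 1 region of all 3 antibodies was found in the windows of 38.9% of protein-coding genes. Fewer than the 5 of Rnd2 were found for 97.5% of protein-coding genes, fewer than the 3 of Rnd3 for 91.4%, and fewer than the 1 of Rnd1 for 61.1%. Antibody 3, the sparsest list, had a peak at 9 regions, and the lowest antibody 1 score among these was 558.51.

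Rnd2 lies on chromosome 11 at 101464999-101471853 (mm10, plus strand), in a window that holds 11 protein-coding TSSs. Most of its binding lay 3′ of the gene, with 10 regions downstream, 2 in the gene and 2 upstream. All 5 of its regions with 3 antibodies were downstream. Of the antibody 1 peaks 661 share a score of exactly 3100 and the highest is 3233.06, so order among the top scores carries little.

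Rnd2 region 5 (chr11:101477073-101478475) scored 3100 with antibody 1, 3100 with antibody 2 and 458.93 with antibody 3. Its midpoint lay 5921 bp past the end of the gene in intergenic sequence, and 98.6%, 99.8% and 96.1% of the peaks in the 3 lists scored lower. Antibody 2 reached 3100 in 76 of its 35310 peaks, and 0.898% of protein-coding genes have such a peak in their window. Of all regions around the 3 genes this was the one where antibodies 1 and 2 both reached 3100.

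Rnd2 region 7 (chr11:101484849-101486205) followed 13674 bp past the gene end with scores of 3100, 2091.26 and 474.52. Region 8 (chr11:101496596-101497626) lay in an intron of Brca1, a DNA repair gene, and scored 1153.6, 305.13 and 109.02. The stretch from region 5 to region 8 covered 20554 bp and held 4 regions, 3 of them with all antibodies. The remaining one, region 6 (chr11:101478844-101479991), began 368 bp from region 5 and scored 209.85 and 86.13 with antibodies 1 and 2.

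Farther downstream, Rnd2 region 11 (chr11:101524742-101527179) was 2438 bp wide, lay in an exon of Brca1 and scored 3100, 2169.8 and 476.26. Region 12 (chr11:101543903-101544809), in an intron of Brca1 7523 bp from its TSS, scored 558.51, 268.0 and 101.55. These were 60961 and 79357 bp from the Rnd2 TSS, so both were nearer to the TSS of Brca1. The weaker regions 9 and 10 lay in introns of Brca1 with antibody 1 scores of 89.1 and 205.63, and antibody 2 gave 73.2 at region 10. Regions 13 and 14 lay at Nbr1, which encodes an autophagy receptor, the former 429 bp past its TSS with 290.46 and 66.69 and the latter inside the gene with 78.86 from antibody 1 alone.

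Inside Rnd2 and upstream of it antibody 3 had no peak. Region 3 (chr11:101465398-101466476) scored 511.23 and 272.4 and lay 293 bp past the TSS of Vat1, the neighbouring gene that is transcribed the opposite way and encodes a vesicle membrane protein. Region 4 (chr11:101467375-101469130) scored 228.0 and 141.96, and its midpoint was 77 bp past the start of the coding Rnd2 transcript. Region 1 covered the start of Aarsd1, an alanyl-tRNA editing gene, with 114.46 and 110.43. Region 2 covered the start of Rpl27, a ribosomal protein gene, with 1009.34 from antibody 1 alone. The regions at promoters around Rnd2 were thus called with 1 or 2 antibodies. So were most regions of the whole data set, of which 13.3% were called with all 3.

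Which gene the Rnd2 regions are closest to depended on the transcript taken as its start. The transcript of longest span begins beside Vat1, 3176 bp before the coding one, and by it 0 of the 14 regions had Rnd2 as the closest TSS, whether all gene types or protein-coding genes alone were considered. In that case 8 regions, numbers 3 to 10, had Vat1 as the closest protein-coding TSS, and Gm11625, a processed pseudogene, was closer than Vat1 to 6 of them. With the coding transcript, a choice made after seeing the data, 1 region had Rnd2 as the closest gene of any type and 7 had it among protein-coding genes. Those 7 were regions 4 to 10, so they included regions 5, 7 and 8 of all 3 antibodies. Of the protein-coding genes, 47.6% had at least 1 region closest to their own TSS by the longest transcript.

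**Figure D2:**
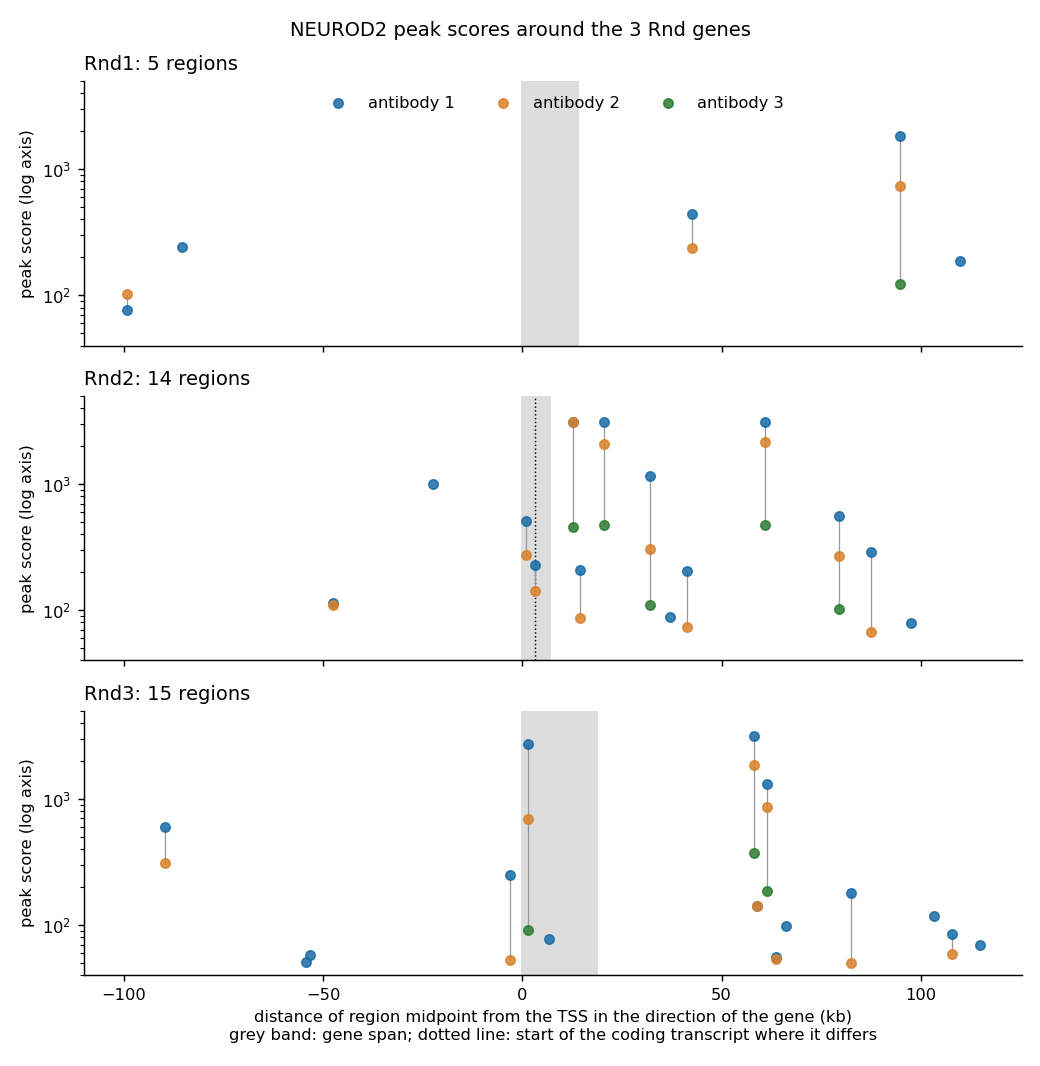
Peak score (y axis, log scale) of each region against the distance of its midpoint from the TSS in kb (x axis, in the direction of the gene) for Rnd1, Rnd2 and Rnd3, with 1 point per antibody and a line joining points of a region. The regions with all 3 antibodies lie between 12.8 and 79.4 kb at Rnd2, and at 1.43, 58.2 and 61.3 kb at Rnd3, and the span of Rnd1 is empty.

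Rnd3 lies on chromosome 2 at 51130438-51149111 (mm10, minus strand) and had the only protein-coding TSS in its window. Of its 15 regions 9 were downstream, 2 in the gene and 4 upstream, and 13 were intergenic. All 15 had Rnd3 as the closest protein-coding TSS, and 12 as the closest TSS of any gene type, the other 3 being nearer to the lincRNA genes Gm13497 and Gm28639. With a minimum score of 100 the 12 became 7. A lower number of regions closest to the own TSS, by all gene types, was found for 99.6% of protein-coding genes. Genes with no other protein-coding TSS in their window made up 8.32% of protein-coding genes (1826), and among these the median was 4.00 regions, 86.8% had fewer regions than Rnd3 and 98.4% had fewer regions closest to their own TSS.

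Rnd3 region 5 (chr2:51145806-51149554) spanned the TSS and reached 2728.38 with antibody 1, 691.18 with antibody 2 and 91.33 with antibody 3. At 3749 bp it was the widest of the 34 regions, and 0.665% of all regions were 3 kb or wider. The antibodies marked it in different ways. Antibody 1 gave a single peak over the whole region, which began 443 bp before the TSS. Antibody 2 gave 2 peaks, of 355.5 across the TSS and of 691.18 from 245 bp inside the gene. The antibody 3 peak was 562 bp wide and had its midpoint in an intron 2740 bp past the TSS, and no antibody 3 peak covered the TSS itself.

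The highest score at Rnd3 belonged to region 7 (chr2:51090541-51091378), 39479 bp past the end of the gene, with 3151.9, 1872.48 and 375.63. Region 9 (chr2:51087255-51088374), 61297 bp from the TSS, scored 1308.22, 859.12 and 185.5. Both were intergenic, and with the weaker regions 8, 10 and 11 they formed a group of 5 regions within 8760 bp, of which regions 7 and 8 were 72 bp apart. The scores of region 8 (chr2:51089880-51090468) were nearly equal with antibodies 1 and 2, at 141.87 and 141.33. Region 10 scored 55.98 and 53.93 and region 11 scored 98.63 with antibody 1 alone. Between this group and region 6 inside the gene, 50732 bp held no peak.

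The other regions of Rnd3 were mostly weak. Upstream, region 1 (chr2:51238189-51239231) was the exception with 601.41 and 311.73, and it lay 3121 bp before the TSS of Gm13497. Region 4 (chr2:51151785-51152554), 3058 bp before the Rnd3 TSS, scored 248.31 and 52.41. Regions 2 and 3 lay close together with 50.84 and 57.69 from antibody 1 alone, next to the lower limit of 50 in the lists. Region 6, in an intron, scored 78 with antibody 1. At the far 3′ side, region 12 scored 178.72 and 50.06, region 14 scored 85.11 and 59.43, and regions 13 and 15 scored 117.55 and 69.83 with antibody 1 alone. None of these 9 had an antibody 3 peak.

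Rnd1 lies on chromosome 15 at 98663421-98677460 (mm10, minus strand), in a window with 9 protein-coding TSSs. No region touched the gene, and a stretch of 126559 bp around it held no peak. The closest region midpoint was 42695 bp from its TSS, a distance larger than that of 72.7% of protein-coding genes, whose median was 9150 bp. The same distance was 1431 bp for Rnd3 and 938 bp for Rnd2 by the transcript of longest span, or 77 bp by the coding Rnd2 transcript. None of the 5 regions had Rnd1 as the closest TSS, by any transcript or gene type tried, and 52.4% of protein-coding genes likewise had 0.

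Rnd1 region 4 (chr15:98582080-98583201) was its only region with all antibodies and scored 1834.89, 736.1 and 122.0. It lay 80781 bp past the end of Rnd1 in an intron of 4930415O20Rik, which was also its closest protein-coding TSS, 11636 bp away, while that of Gm29331, an antisense gene, was 7350 bp away. Each of the remaining 4 regions lay inside another gene. Region 3 (chr15:98633989-98635541), in an intron of the calcium channel subunit gene Cacnb3, scored 444.09 and 235.5. Region 1 lay in an intron of Wnt10b, which encodes a Wnt ligand, and scored 76.13 and 102.32, the only 1 of the 34 regions in which antibody 2 scored higher than antibody 1. Region 2, 306 bp past the TSS of the small GTPase gene Arf3, scored 242.91 and region 5, in an exon of the cyclin gene Ccnt1, scored 188.51, both with antibody 1 alone.

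**Figure D3:**
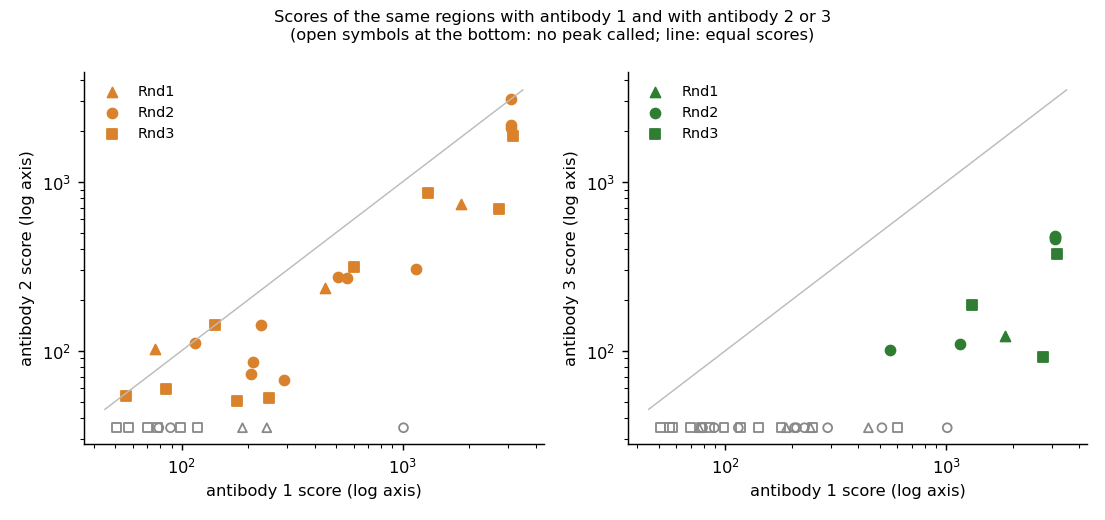
Scores of the 34 regions with antibody 1 (x axis, log scale) against antibody 2 (left) or antibody 3 (right, both log scale), by gene, with open symbols where the second antibody had no peak and a line at equal scores. Antibody 3 peaks appear from an antibody 1 score of 558.51 upwards, with 1 open symbol above 1000 on each side, the Rpl27 region in the Rnd2 window.

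Scores of the same regions were compared between antibodies. Over the 23 regions with both, the log10 scores of antibodies 1 and 2 had a Pearson r of 0.924, against 0.885 over the 32210 such regions of the whole data set. With antibody 3, over 9 regions, r was 0.689 with antibody 1 (0.683 over all such regions) and 0.918 with antibody 2 (0.769). These are descriptions across regions of the same 3 libraries, and 4 of the 9 regions have an antibody 1 score of 3100 or more. Rnd3 region 5, with 2728.38 from antibody 1, had the lowest antibody 3 score of the 9, 91.33. Antibody 1 scores were a median of 1.88 times those of antibody 2 and 7.05 times those of antibody 3, against 1.84 and 10.4 in the whole data set. In regions with 1, 2 and 3 antibodies the antibody 1 score had medians of 89.1, 208 and 2728, against 77.6, 209 and 1169 over all regions.

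Within the central 200 bp, 20 of the 34 regions held an extended E-box, or 58.8% (95% Wilson interval 42.2% to 73.6%, counting error only). Over all regions the share was 58.6%, so the Rnd windows were at the background. By gene the counts were 3 of 5 at Rnd1, 7 of 14 at Rnd2 and 10 of 15 at Rnd3, with intervals that overlap. In windows of 200 bp that start 1 kb beyond the ends of each region, the motif was in 26.5% at the members and 22.4% overall. By distance to promoters the counts lay farther apart. Of the 5 regions whose midpoint lay within 1 kb of a protein-coding TSS, by the transcript of longest span, 1 held the motif. Of the 29 others 19 did, or 65.5%. The corresponding shares over all regions were 17.8% and 65.2%. With coding transcripts, a choice made after seeing the data, Rnd2 region 4 joined the first group, giving 1 of 6 and 19 of 28. Rnd3 region 5 spans the TSS but counted among the others, because its midpoint lay 1431 bp away.

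Regions with more antibodies at the Rnd genes held the motif in 6 of 11 (1 antibody), 7 of 14 (2 antibodies) and 7 of 9 cases (3 antibodies). Over all regions these shares were 57.0%, 58.6% and 63.5%. In the windows beyond the region ends, the motif was in 2 of 22, 8 of 28 and 8 of 18 at the Rnd genes. There the shares over all regions were 22.4%, 22.1% and 23.1%. The sequences printed above show how the motifs lie. Rnd2 region 12 held 3 extended E-boxes, CAGATG 2 times and CATATG once, and the last 2 of them were centred 55 and 69 bp from the midpoint. Rnd2 region 7 held CATCTG 2 times, centred 16 and 93 bp from the midpoint, and Rnd3 region 9 held CAGATG and CATCTG, centred 89 and 26 bp before it. Rnd2 region 5 and Rnd3 region 7, which led their windows by the antibody 2 score, each held a single one, within 40 bp of the midpoint.

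In single regions the number of central E-boxes and the score did not always go together. The most extended E-boxes, 4 in the central 200 bp, were in Rnd3 region 13, where antibody 1 scored 117.55 and the other antibodies had no peak, and 1.03% of all regions had 4 or more. Rnd2 regions 5 and 7 and Rnd3 region 7, with antibody 1 scores of 3100, 3100 and 3151.9, held 1, 2 and 1 there. By contrast Rnd2 region 11 and Rnd3 region 5, with antibody 1 scores of 3100 and 2728.38, had none there. Over their whole lengths they held 3 and 5. Both are wide, and around the midpoint of their antibody 3 peak, 321 bp and 1309 bp away from the region midpoint, 1 extended E-box was found in each. Rnd2 region 7 and Rnd3 region 9, with 2 each around the region midpoint, had 0 around that of the antibody 3 peak. With that centre, chosen after seeing the data, 7 of the 9 regions with 3 antibodies held the motif, against 73.3% of such regions in the whole data set, and 7 of the 9 did around the region midpoint, against 63.5%.

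By the letters of the core, CAGATG was in the centre of 12 regions (35.3%, against 38.0% of all regions), CAGCTG in 8 (23.5%, against 23.2%) and CATATG in 5 (14.7%, against 10.0%). A region can hold more than 1 form. The Rnd3 promoter held 1 extended E-box, CATCTG, whose core begins 231 bp before the TSS, and 22.0% of the 32851 promoters in the RefSeq table hold the motif in the same 250 bases. It lay inside region 5 and inside the antibody 2 peak across the TSS. The central 200 bp of Rnd2 region 4, at the start of the coding transcript, were 83.5% G or C and held 0 extended E-boxes and 1 CANNTG core.

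**Figure D4:**
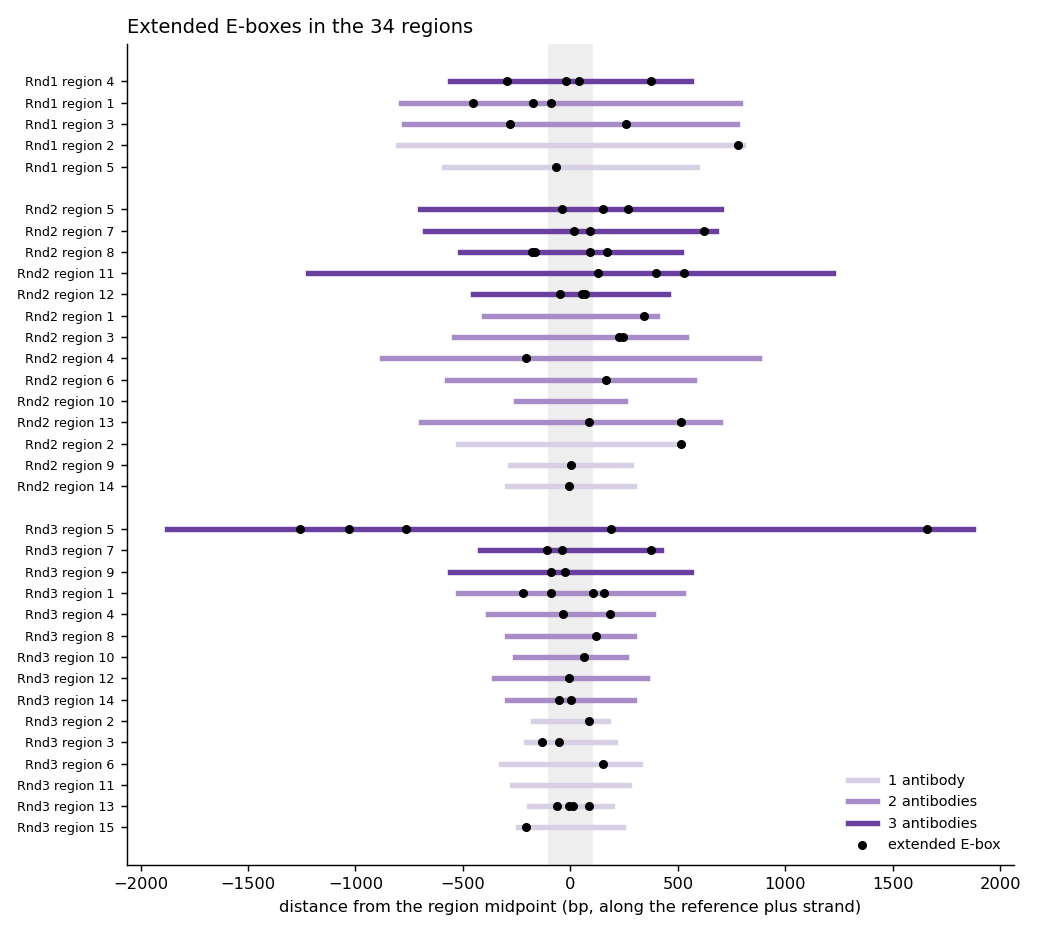
Extended E-boxes (black points) by their distance in bp from the region midpoint (x axis) in the 34 regions (rows, bars drawn to the width of each region and shaded by the number of antibodies), with the central 200 bp in grey. The points of Rnd2 region 11 and Rnd3 region 5 lie outside the grey band, and the 4 points of Rnd3 region 13 within it.

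Genes of the pathway were measured in the same way. Of 17 partners and effectors of Rnd proteins 17 had a region (84.9% of all protein-coding genes did), 7 had one of all 3 antibodies (38.9% of all) and 14 had one closest to their own TSS (47.6% of all). The median was 7 regions, against 5 over protein-coding genes. The most regions closest to the own TSS were found at Plxnd1, a plexin gene, with 5 of its 14, and 4 each were found at the plexin gene Plxnb2, at Fnbp1, a membrane-bending F-BAR protein gene, and at Limk1, a kinase that acts on cofilin. Plxnb3, Rock1 and Limk2 had 0, Rock1 encoding a kinase that phosphorylates Rnd3.

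Values were also read for transcription factor genes known to act upstream of Rnd2. Neurog2 had 8 regions, of which 5 were closest to its own TSS, with highest scores of 958.61 and 659.93 for antibodies 1 and 2 and no antibody 3 peak. Zbtb18, a repressor of Rnd2, had 17 with a highest score of 3100 and 3 regions of all antibodies, 2 of the 17 being closest to its TSS, or 16 when protein-coding genes alone were considered. Nr2f1 had 10, of which 3 were closest to its TSS. Of protein-coding genes, 66.6%, 94.0% and 76.9% had fewer regions than Neurog2, Zbtb18 and Nr2f1. Fewer regions closest to their own TSS, by all gene types, were found for 95.9%, 80.4% and 89.7%. Over all gene types, none of these factors or of the 17 partners reached the 12 regions closest to the Rnd3 TSS, whereas among protein-coding genes alone the 15 of Rnd3 were fewer than the 16 of Zbtb18.

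**Figure D5:**
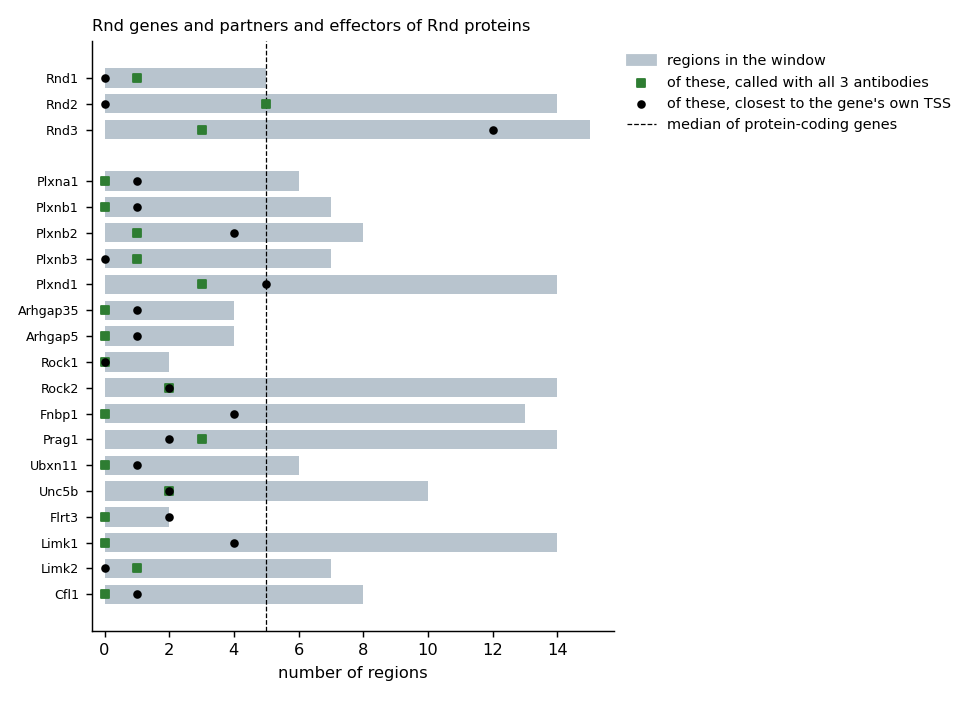
Number of regions (x axis) in the window of each Rnd gene and of 17 Rnd partners and effectors (bars), with squares for regions of all 3 antibodies, circles for regions closest to the own TSS and a dashed line at the median of protein-coding genes. Rnd2 has the most squares (5) and Rnd3 the circle farthest to the right (12).

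Genes with a similar pattern were found from 9 values, the log2 of 1 plus the number of peaks of each antibody in the 100 kb before the gene, in the gene and in the 100 kb after it. For Rnd1 the distance was 0.000 for 11 genes, of which Mxd1, Chka and Mgea5 come first in order of identifier. Closest to Rnd2 were Aars2, Wnt9b and Inava, with distances of 0.547, 0.626 and 0.774. Rnd3 was most like Bpnt1, Lrp1 and Inf2, with 0.774, 0.817 and 0.912. Rnd2 and Rnd3 thus had no gene with an identical pattern outside their own neighbourhood.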

How the data were processed

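NEUROD2 ChIP-Seq libraries of E14.5 BALB/c cortex were made with 3 antibodies. The authors mapped single-end reads to mm10 with Bowtie, removed duplicates and multiply mapped reads, and called peaks separately for each antibody with MACS, using as control the GFP library whose antibody shared its host species. The deposited score of each peak is 10 times the negative log10 of the p-value, with a cutoff of 50, unscaled between libraries. The GFP libraries entered only that calling. Peak lists hold no read counts, and the library totals the study lists were not used here, so no depth is given beside a score.

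Peaks overlapping by at least 1 bp were merged and placed on GENCODE release M21 (GRCm38), by the transcript of longest span. Positions count from 1. Motifs were searched on both strands of the reference, which is not BALB/c. The merging, distance and motif steps were tested on simulated data. Named genes were the members, the genes with the closest TSS, those with most and fewest regions closest to their TSS in a list of Rnd partners, transcription factors upstream of Rnd2, and 3 similar genes per member. Members, lists and this rule were chosen with earlier results of these data known. Results of other listed genes are not reported here. Alternatives covered score, overlap, window, antibodies and motif settings. Python 3.11.15, numpy 2.4.6 and pysam 0.24.0 were used.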

Additional observations from a re-analysis of the deposited data

How the results depend on the processing

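With a minimum score of 100, Rnd3 had 8 regions, 7 closest to its TSS, and 64.7%, 94.0% and 83.4% of protein-coding genes had fewer regions than Rnd1, Rnd2 and Rnd3. In a window of 50 kb Rnd1 had 1 region and Rnd3 had 8, above 21.3% and 86.3% of genes, and 42.1% of regions held the extended E-box. Counting regions of at least 2 antibodies, the study's own criterion, gave 3 at Rnd1, 11 at Rnd2 and 9 at Rnd3. With it 93.8% of genes were below Rnd2 and 89.6% below Rnd3. Leaving out 1 antibody at a time gave 3 to 5 regions at Rnd1 (3 without antibody 1), 11 to 14 at Rnd2 and 10 to 15 at Rnd3, above 43.4% to 46.9%, 89.1% to 92.5% and 90.3% to 91.7% of genes, with 9 to 12 closest to the Rnd3 TSS and an E-box share of 50% to 58.8%. The E-box share was 32.4% in the central 100 bp (38.8% of all regions), 94.1% in whole regions (85.6%) and 79.4% for any CANNTG (83.0%). With the coding transcript, a setting added after seeing the data, 1 region was closest to the Rnd2 TSS, and 7 were among protein-coding genes. The other 68 of 89 values stayed within 1.5 times a count or within 1 SD over antibodies of a share. No paired analysis was possible because no groups were compared. Peak lists keep no sub-threshold signal, so an absent peak at Rnd1 or with antibody 3 is not absence of binding, and the widths and merging of peaks limit where binding is centred.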

Other observations

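The start of Rpl27, a ribosomal protein gene upstream of Rnd2, carried a region of antibody 1 alone with a score of 1009.34 and 0 extended E-boxes in its central 200 bp. Of the 18825 regions called with antibody 1 alone in the whole data set, 6 reached a score of 1000, and 84.1% of the 4911 regions with an antibody 1 score of at least 1000 were called with all 3 antibodies. Among the 9 such regions in the Rnd windows 8 were called with all 3.

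The ratio of antibody 1 to antibody 3 scores was 29.9 at Rnd3 region 5, which spans the gene start, and between 5.50 and 15.0 at the other 8 regions of all 3 antibodies. Rnd2 regions 5, 7 and 11, with ratios of 6.75, 6.53 and 6.51, carry the antibody 1 score of 3100 that many peaks share.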
